A study of Danio rerio with 6 samples.

Results

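The genes described here are the building parts of the contractile machine of muscle, as they were measured in the heads of *tulp1*-dKO and wt zebrafish larvae. They are the listed entries whose name begins with tnnt, tnni, tnnc, mylpf, mylz, *myl1*, myhz, myhc, smyhc, actc1, acta1, ckm, tmod, myom or myoz, or is *pvalb1* to *pvalb4*, and whose mean over the 6 samples reaches 0.5 TPM. Of 69 entries with such a name, 68 reached this minimum, out of 22824 entries that did so and 32520 listed in all. RNA was sequenced from dissected heads at 4 dpf, with 3 *tulp1*-dKO samples and 3 wt samples of the AB strain. The *tulp1*-dKO zebrafish carry CRISPR/Cas9 mutations in both *tulp1a* and *tulp1b*, the zebrafish homologs of *TULP1*, and come from a cross of 1 mutant line of each gene. The wt zebrafish carry neither mutation, and the labels name no treatment for either group. How many heads went into a sample, and whether samples came from separate clutches, is not given in the sources used here, so p-values measure the spread between these samples, which may be technical.

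In striated muscle, thick filaments of myosin pull on thin filaments of actin within the sarcomere, which shortens. Each myosin is made of heavy chains, which hold the motor, and light chains, which bind the neck of the motor. Calcium released into the fiber binds troponin C, and troponin I and troponin T pass this switch on to tropomyosin on the thin filament. Tropomodulin caps the thin filament, myozenin sits in the Z-disc where thin filaments are anchored, and myomesin links thick filaments in the M-band. Parvalbumin binds calcium in fast fibers and helps them relax, and creatine kinase rebuilds ATP from phosphocreatine. Most of these parts come in fast, slow and cardiac versions encoded by separate genes, and the zebrafish holds several copies of many of them. A larval head holds jaw, gill arch and eye muscles and, depending on where the body was severed, parts of the heart and of the anterior trunk muscle.

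The members were sorted by name into 33 fast, 14 slow and 14 cardiac genes and 6 others, which are mitochondrial creatine kinases, non-sarcomeric light chains and a tropomodulin of other cells. The remaining entry, *actc1c*, was given no class. This sorting is a convention. The file describes *acta1a*, placed here with the cardiac genes, as skeletal muscle actin, and *actc1b*, placed here with the fast genes, as a cardiac actin. It also describes the cardiac member *tnnc1a* as slow. Levels are given as TPM, a unit of relative transcript abundance that corrects for gene length, so that levels of different genes can be compared. TPM holds no read counts, so the depth behind a value is unknown. Differences are log2 fold changes of *tulp1*-dKO over wt on the log2(TPM + 0.1) scale. The added 0.1 makes the change of weakly expressed genes smaller, and where a value is 0 the size of the change depends on it. The differences were tested with limma over all 22824 entries, with Benjamini-Hochberg adjustment. Changed genes are those whose adjusted p does not exceed 0.05 and whose log2 fold change is 1 or more, up or down.

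The listed values summed to between 945666 and 948860 TPM in the 6 samples. For both targeted genes all *tulp1*-dKO samples lay below all wt samples. *tulp1b* measured 2.71, 2.01 and 2.37 TPM in *tulp1*-dKO heads and 13.1, 11.9 and 9.77 TPM in wt, with log2 fold change −2.25 (SE 0.17, adjusted p = 0.0024, limma). *tulp1a* measured 16.0, 14.35 and 15.8 TPM in *tulp1*-dKO heads and 25.3, 25.0 and 23.7 TPM in wt, with log2 fold change −0.68 (SE 0.09, adjusted p = 0.0201, limma, and 0.0529 to 0.104 without *tulp1*-dKO sample 2 or 3 or wt sample 1 or 2). Marker lists of other parts of the larva also differed. Of 17 photoreceptor genes, 15 had a lower mean log2 value in *tulp1*-dKO zebrafish and 10 were changed, all lower. Their summed level was 3699 to 6720 TPM in *tulp1*-dKO samples and 16452 to 18081 TPM in wt samples, with no marker at 0. The summed level of 23 markers of liver, pancreas and gut was 3295, 6812 and 10893 TPM in *tulp1*-dKO samples and 4579, 6636 and 4799 TPM in wt samples, with 17 of the 23 higher and none changed (limma), though 2 were higher at an unadjusted p of at most 0.05. Of all entries tested, 58.1% were higher and 41.9% lower by log2 fold change, 10.1% were higher at that p, and 0.960% were changed and lower. The summed level of 26 posterior HOX genes, which mark the trunk behind the head, was 15.1, 17.8 and 16.9 TPM in *tulp1*-dKO samples and 13.3, 14.4 and 10.96 TPM in wt samples, without overlap before any rescaling. *tulp1*-dKO sample 1 was only just above wt sample 2. In that *tulp1*-dKO sample the median of all entries was itself 0.09 above the wt mean on the log2 scale. Of these HOX genes 7 reached the 0.5 TPM minimum, 4 of them with a log2 fold change above 0 and 3 below. None of the 7 was changed (limma) or passed an unadjusted p of 0.05. Of the 26 genes, 16 were at 0 in at least 1 sample and 3 (*hoxb10a*, *hoxc12a* and *hoxc13a*) in all. In these bulk samples, fewer or more muscle fibers and less or more RNA per fiber cannot be told apart, and neither can a different share of trunk tissue in the dissected heads.

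Most of the contractile genes had closely similar levels in *tulp1*-dKO and wt heads. The absolute log2 fold change was at most 0.25 in 47 of the 68 members and at most 0.5 in 61. It was also at most 0.5 in 18791 of the 22824 entries tested, so small differences were common over all entries. The 95% interval of the log2 fold change lay within 0.5 in either direction for 41 members and within 1 for 61. Counted as changed were 3 entries, since *myhc4* was higher, and *ckmt2b* and 1 of 2 entries named *actc1a* were lower. Over all entries tested, 0.364% were changed and higher and 0.960% were changed and lower, or 1.32% in both directions together, against 3 of 68 members (4.41%). Without a minimum fold, 3 members passed an adjusted p of 0.05 as higher (*myhz1.2*, *myhz1.3* and *myhc4*) and 3 as lower (*ckmt2b*, *myoz3a* and that *actc1a* entry), where the background is 0.670% higher and 1.22% lower. At an unadjusted p of at most 0.05, 13 members were higher and 9 lower, against 10.1% and 6.97% of all entries, and without wt sample 1 the number higher was 7. No overlap between the groups was seen for 10 members that were higher and 10 that were lower, against 14.6% and 8.86% of all entries. In all, 37 members had a log2 fold change above 0 and 31 below, and of all entries 58.1% were above and 41.9% below 0. An absolute log2 fold change of at least 1, with no test, was found for 4 members, against 6.63% of all entries. The median of the members was 0.05, as was the median of all entries.

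**Figure D1:**
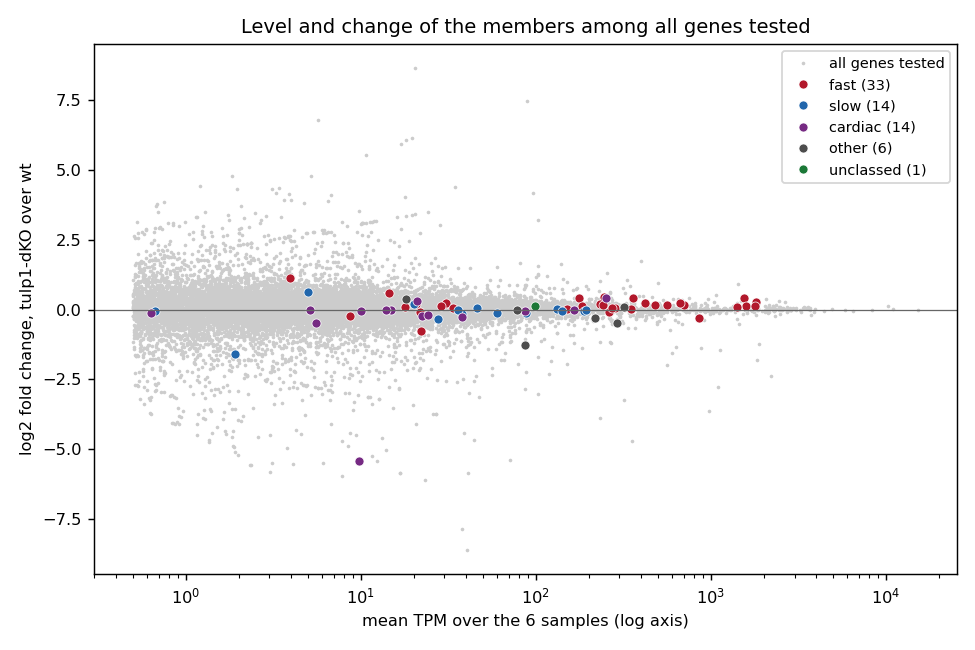
Log2 fold change of *tulp1*-dKO over wt (vertical axis) against the mean TPM over the 6 samples (horizontal log axis) for the 22824 entries tested, as gray dots, with the 68 members colored by class. Most fast members lie at the high end of the levels and close to 0, and the lowest member is an *actc1a* entry at −5.43.

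Fast genes made up most of the contractile transcripts of the larval head. The 68 members together made up 1.85%, 2.002% and 1.95% of the listed TPM in the *tulp1*-dKO samples and 1.72%, 1.78% and 1.81% in the wt samples. The fast sum was 14803, 16267 and 15894 TPM in *tulp1*-dKO samples and 13472, 14062 and 14227 TPM in wt samples. In these values, taken without rescaling, every *tulp1*-dKO sample was above every wt sample. In *tulp1*-dKO sample 1, the closest to wt, the median of all entries was itself 0.09 above the wt mean on the log2 scale. Whether the sums stay apart under another scaling was not tested. The slow sum was 943, 996 and 949 TPM in *tulp1*-dKO samples and 1017, 943 and 1009 TPM in wt samples, and the groups overlapped. The cardiac sum was 732, 721 and 607 TPM in *tulp1*-dKO samples and 609.9, 626 and 708 TPM in wt samples, again with overlap. Most of it came from the actins *actc1a* (ENSDARG00000042535) and *acta1a*. Their means were 289 and 163 TPM in *tulp1*-dKO heads and 214 and 167 TPM in wt heads. The cardiac sum thus says little of the other cardiac members, most of which had a log2 fold change below 0. The ratio of the fast to the slow sum was 15.7, 16.3 and 16.7 in *tulp1*-dKO samples and 13.2, 14.9 and 14.1 in wt samples, and the groups did not overlap. The ratio of the fast to the cardiac sum was 20.2, 22.6 and 26.2 in *tulp1*-dKO samples and 22.1, 22.5 and 20.1 in wt samples, which overlapped.

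**Figure D2:**
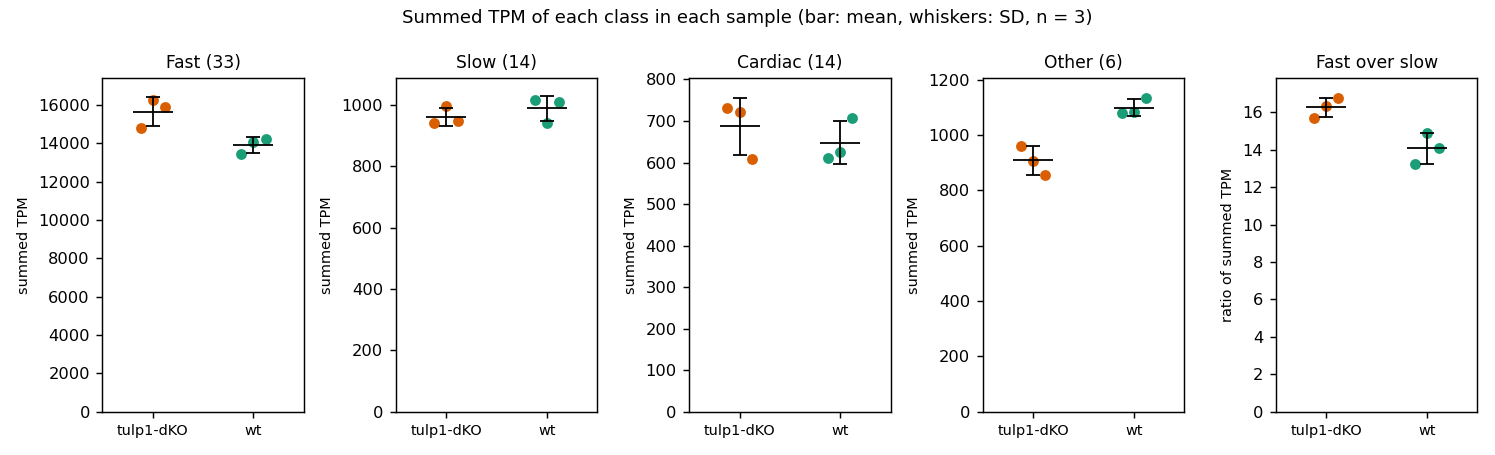
Summed TPM of the fast (33), slow (14), cardiac (14) and other (6) members in each sample, and the ratio of the fast to the slow sum, with *tulp1*-dKO samples on the left and wt samples on the right of each panel. Points are samples, the bar is the mean and the whiskers are the SD (n = 3). The fast sum is 15655 ± 761 TPM in *tulp1*-dKO and 13920 ± 397 TPM in wt, without rescaling of the samples. This sum and the fast to slow ratio are higher in every *tulp1*-dKO sample, while the slow and cardiac sums overlap.

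Of the difference of 1735 TPM between the mean fast sums, *pvalb1* and *pvalb2* made up 45.8%, with 441 and 353 TPM more in *tulp1*-dKO heads. The sum of the other 31 fast members was 11628, 12148 and 11961 TPM in *tulp1*-dKO heads. In wt heads it was 10570.4, 11061 and 11285 TPM, again without overlap before any rescaling. Of the 33 fast members, 28 had a log2 fold change above 0 and 5 below, with a median of 0.15. Of the 14 slow members 4 were above 0 and 10 below, with a median of −0.04. Of the 14 cardiac members 2 were above 0 and 12 below, with a median of −0.06. The median of all entries was 0.05, and dividing each sample by its median ratio to a common reference moved it to 0.00. Under that scaling, 26 fast members were above 0 and 7 below, with a median of 0.10, while the slow median was −0.07 and the cardiac median −0.10. Without wt sample 3 the cardiac median was 0.01, so its sign rested on that sample. In that fit the median of all entries was 0.06, still above the cardiac median. Measured as the median distance from the wt mean on the log2 scale, the fast members stood at 0.07, 0.21 and 0.16 in *tulp1*-dKO samples 1, 2 and 3 and at −0.03, 0.02 and 0.03 in the wt samples. The median of all entries stood at 0.09, 0.03 and 0.04 in *tulp1*-dKO samples 1, 2 and 3 and at 0.00, −0.00 and 0.02 in the wt samples, so that in *tulp1*-dKO sample 1 the fast members were not above the median of all entries. The slow members stood at −0.05, 0.00 and −0.02 in *tulp1*-dKO samples and at 0.07, −0.08 and −0.00 in wt samples. Over the same samples the liver, pancreas and gut markers stood at −0.48, 0.88 and 1.75 in *tulp1*-dKO samples and at −0.17, 0.42 and −0.22 in wt samples, and the part of tissue carried along in the dissection in the fast genes' values was not tested. The difference between the classes was described by these values and given no test.

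**Figure D3:**
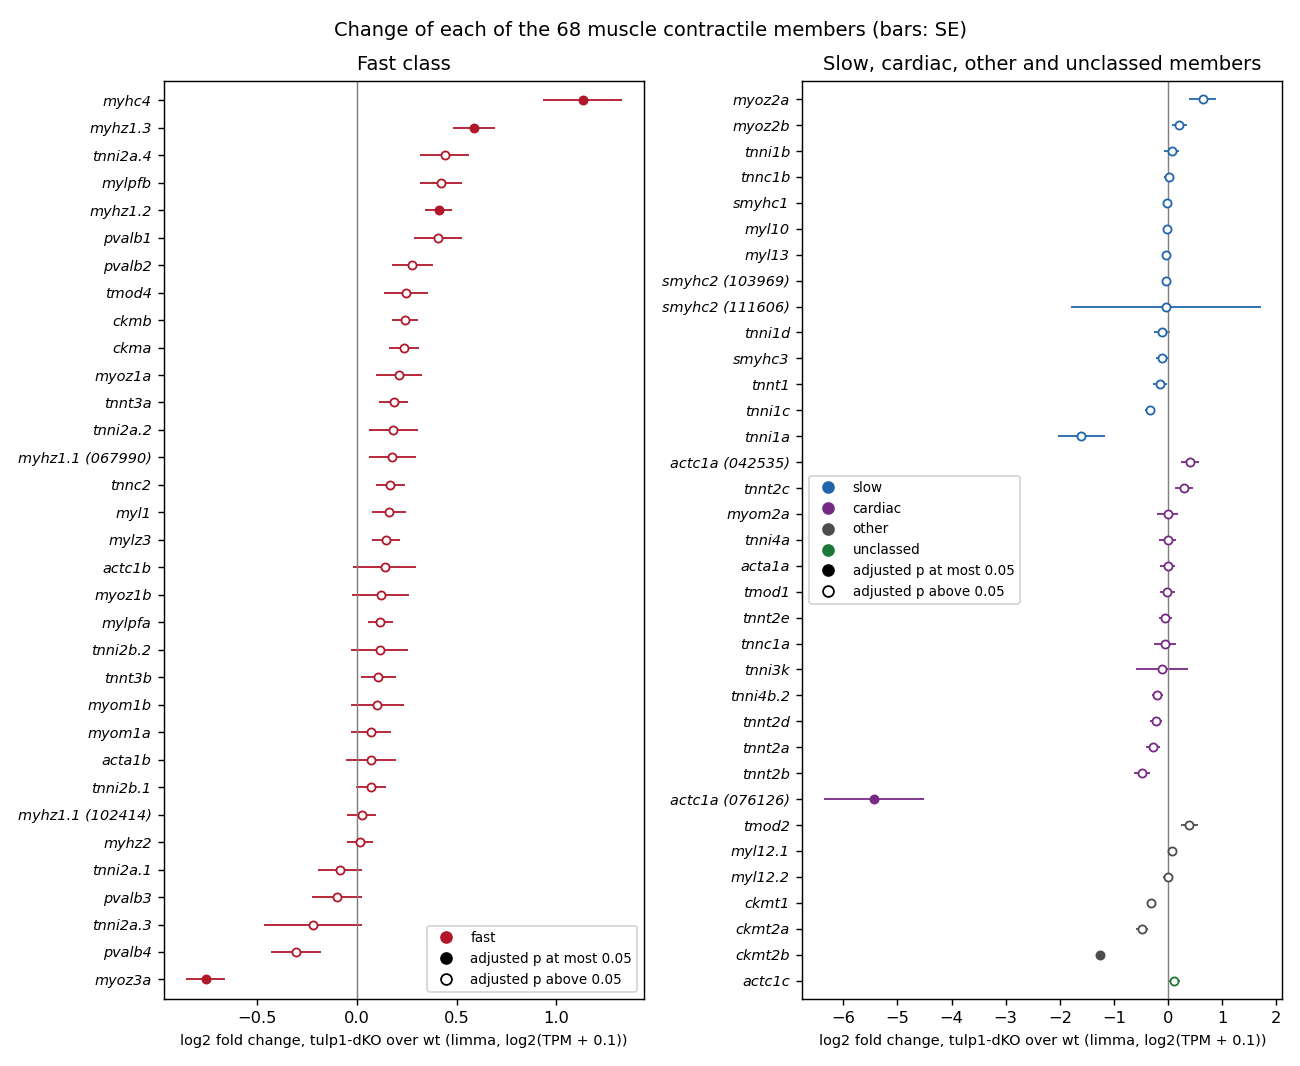
Log2 fold change of *tulp1*-dKO over wt (horizontal axis) with its SE for each member, sorted within its class; filled points passed an adjusted p of 0.05 (limma). The 2 panels have different scales, and 6-digit numbers in brackets are the last digits of the identifier where 2 entries share a name. Of the fast genes 28 of 33 lie right of 0, while the slow and cardiac genes lie mostly just left of 0.

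Among the 6 fast myosin heavy chain entries, *myhz1.2*, *myhz1.3* and *myhc4* passed an adjusted p of 0.05 as higher and the other 3 did not. The heavy chain gene *myhz1.2* was at 390, 438 and 395 TPM in *tulp1*-dKO heads and at 306, 303 and 309 TPM in wt heads. Every *tulp1*-dKO sample was above every wt sample, and the log2 fold change was 0.41 (SE 0.07, adjusted p = 0.0346, limma). *myhz1.3*, a gene of lower level, was at 16.95, 17.8 and 17.7 TPM in *tulp1*-dKO heads and at 10.9, 11.05 and 12.9 TPM in wt heads. Its log2 fold change was 0.59 (SE 0.11, adjusted p = 0.0472, limma), again without overlap. Leaving out any 1 sample took both genes past an adjusted p of 0.05, to between 0.0521 and 0.139 for *myhz1.2* and between 0.0508 and 0.171 for *myhz1.3*. Both also missed it under median ratio scaling (0.0664 for *myhz1.2* and 0.0564 for *myhz1.3*) and with eBayes without trend (0.124 and 0.0727), and *myhz1.3* with no filter (0.0534) and under quantile normalization (0.0572). *myhc4*, at the lowest level of the group, was at 6.16, 4.75 and 5.44 TPM in *tulp1*-dKO heads and at 2.26, 2.05 and 3.03 TPM in wt heads. It was 2.23-fold higher by the mean TPM, with a fold change of 1.13 on the log2 scale (SE 0.20, adjusted p = 0.0412, limma), and was the only member counted as changed and higher. That call was lost in 9 of 17 alternative settings, among them leaving out any 1 sample other than wt sample 3. Over all 17 settings, kept or lost, its adjusted p lay between 0.0386 and 0.147 (limma).

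The other fast heavy chains did not pass the test. *myhz2* was at 340, 345 and 365 TPM in *tulp1*-dKO heads and at 352, 355 and 332 TPM in wt heads (log2 fold change 0.02). The 2 entries named *myhz1.1* had log2 fold changes of 0.18 and 0.02, with means of 256 and 151 TPM in *tulp1*-dKO heads and of 226 and 149 TPM in wt heads. All 6 fast heavy chains were above 0, but *myhz2* and the lower of the *myhz1.1* entries fell below 0 under median ratio scaling (−0.03 and −0.02). In the RefSeq gene table of assembly GRCz12tu, *myhz1.1*, *myhz1.2*, *myhz1.3*, *myhc4* and *myhz2* lie in 1 row with at most 4 coding genes between any of them. How the counting shared reads between such near copies was not tested, so the level of each single gene is uncertain.

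The slow heavy chains differed by less than the spread between samples. *smyhc2* (ENSDARG00000103969), the most abundant, was at 139, 145 and 130 TPM in *tulp1*-dKO heads and at 143, 149 and 134 TPM in wt heads. Its log2 fold change was −0.04 (95% interval −0.22 to 0.14). *smyhc3* had a log2 fold change of −0.11 (95% interval −0.39 to 0.17) and *smyhc1* one of −0.01 (95% interval −0.22 to 0.20). These 3 genes also neighbor each other. A further entry named *smyhc2* (ENSDARG00000111606) had listed values of 0, 0 and 1.89 TPM in *tulp1*-dKO heads and of 2.09, 0 and 0 TPM in wt heads, and at a mean of 0.663 TPM it was just inside the minimum for members, as was *tnni3k*, a kinase named for its binding to cardiac troponin I, at 0.630 TPM. The entry left outside, *tnni4b.1*, had a mean of 0.148 TPM.

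The 4 fast myosin light chains all had small log2 fold changes above 0, and none passed an adjusted p of 0.05 (limma), 1 of them passing it unadjusted. *mylpfa*, the fast regulatory light chain and one of the most abundant members, was at 1523, 1721 and 1701 TPM in *tulp1*-dKO heads and at 1521, 1539 and 1496 TPM in wt heads. The groups overlapped, and the log2 fold change was 0.12 (SE 0.06, adjusted p = 0.411, limma). Its copy *mylpfb* was at 176, 218 and 210 TPM in *tulp1*-dKO heads and at 137, 159 and 153 TPM in wt heads, without overlap (log2 fold change 0.42, adjusted p = 0.107, limma). The essential light chains *myl1* and *mylz3* had log2 fold changes of 0.16 and 0.15. Of the light chains placed with the slow genes, *myl10* was at 185, 203 and 191 TPM in *tulp1*-dKO heads and at 195, 181 and 209 TPM in wt heads (log2 fold change −0.02, 95% interval −0.20 to 0.17), and *myl13* had a log2 fold change of −0.04 (95% interval −0.22 to 0.15). The non-sarcomeric *myl12.1* and *myl12.2*, regulatory light chains of non-muscle myosin, had log2 fold changes of 0.08 and −0.00.

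The thin filament genes include the largest fall among the members. One entry named *actc1a* (ENSDARG00000076126) had listed values of 0, 1.75 and 0.35 TPM in *tulp1*-dKO heads and of 18.0, 19.1 and 18.9 TPM in wt heads. All *tulp1*-dKO samples were far below all wt samples, with a fold change of −5.43 on the log2 scale (SE 0.92, adjusted p = 0.0386, limma). Since 1 of the values is 0, the size of this fall depends on the pseudocount, and it was −4.28 with 0.5 and −3.67 with 1. It was −4.36 without *tulp1*-dKO sample 1 and −6.47 without *tulp1*-dKO sample 2. The other entry named *actc1a* (ENSDARG00000042535), which had the higher level, was at 349, 300.2 and 217 TPM in *tulp1*-dKO heads and at 194, 224 and 223 TPM in wt heads. There the groups overlapped, since *tulp1*-dKO sample 3 was within the wt values, and the log2 fold change was 0.41 (SE 0.17, adjusted p = 0.276, limma). Both entries carry the same description, cardiac muscle alpha actin, while the gene name table used here gives the lower one as *actc1c* and the file's *actc1c* (ENSDARG00000079111) as *acte1*. Summed over the 2 entries of that name, the log2 fold change turned to 0.29 (adjusted p = 0.435, limma). The call of the lower entry was lost in 8 of 17 alternatives, that sum included. Also among these 8 were the fits without *tulp1*-dKO sample 3 (adjusted p = 0.0991, limma) and without wt sample 1 (0.139), 2 (0.115) or 3 (0.0863). Over the alternatives other than that sum, kept or lost, the adjusted p of this entry lay between 0.00408 and 0.139 (limma). How reads were divided between the actin genes, whose products are nearly identical, was not tested.

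The remaining alpha actins did not differ beyond the spread between samples. *actc1b* was at 2237, 1711 and 1663 TPM in *tulp1*-dKO heads and at 1382, 1774 and 1945 TPM in wt heads, with the lowest value in a wt sample and the highest in a *tulp1*-dKO sample (log2 fold change 0.14, adjusted p = 0.71, limma). *acta1b* had a mean of 279 ± 37.6 TPM in *tulp1*-dKO heads and 265 ± 29.2 TPM in wt heads (SD, n = 3 each). *acta1a* was at 166, 165 and 158 TPM in *tulp1*-dKO heads and at 145, 146 and 209 TPM in wt heads, with wt sample 3 above all others (log2 fold change −0.01). The file's *actc1c* was at 117, 100.05 and 92.1 TPM in *tulp1*-dKO heads and at 87.7, 93.3 and 104 TPM in wt heads (log2 fold change 0.11).

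**Figure D4:**
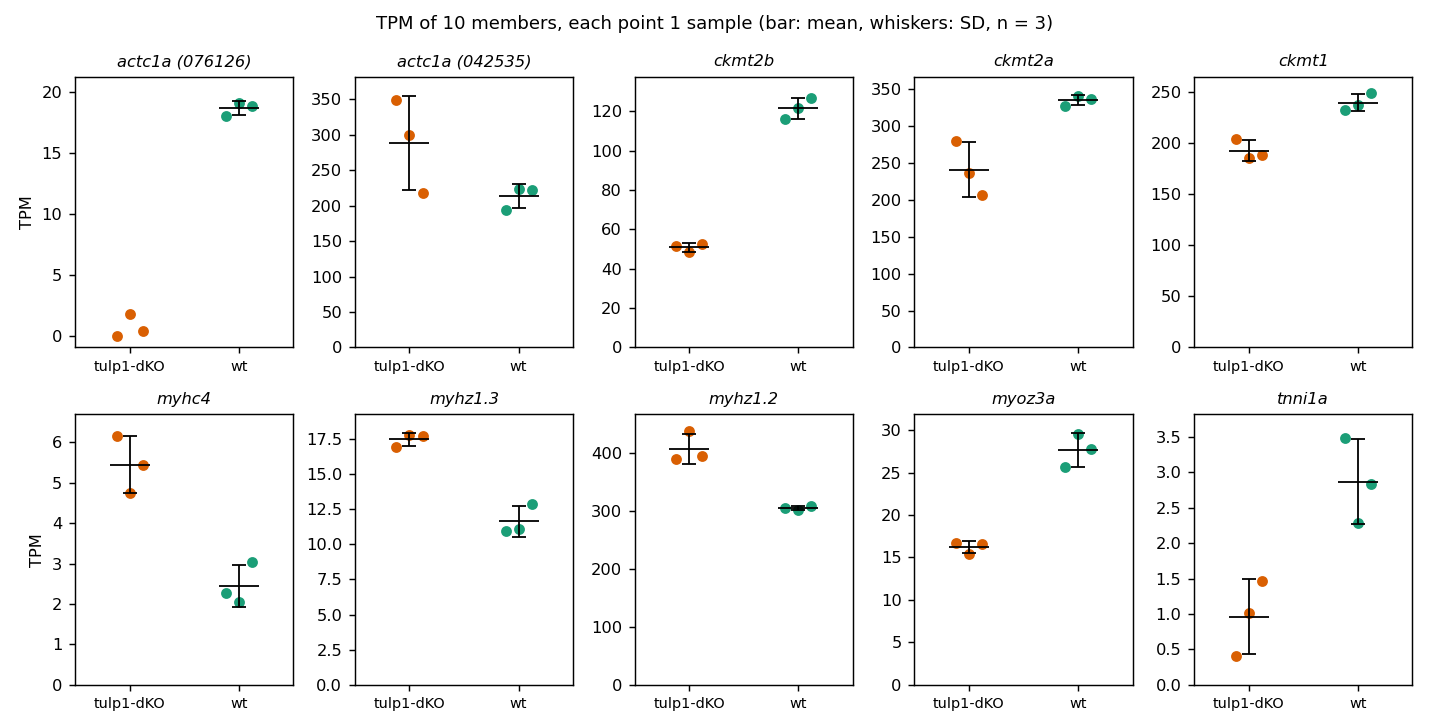
TPM of 10 members in each sample, with *tulp1*-dKO samples on the left and wt samples on the right of each panel. Points are samples, the bar is the mean and the whiskers are the SD (n = 3), left out for the group with a value of 0; the vertical scales differ. One *actc1a* entry and *ckmt2b* are well separated between the groups, and the values of the other *actc1a* entry overlap between them.

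Among the troponin genes of the fast class, none passed an adjusted p of 0.05 (limma), though *tnnt3a* and *tnni2a.4* passed it unadjusted. Fast troponin T, encoded by *tnnt3a* and *tnnt3b*, had log2 fold changes of 0.18 and 0.11, and fast troponin C, encoded by *tnnc2*, 0.17. Of 6 fast troponin I genes, 4 were above 0 and 2 below. *tnni2a.4* was at 264, 320 and 263 TPM in *tulp1*-dKO heads and at 221, 228 and 177 TPM in wt heads, without overlap (log2 fold change 0.44, adjusted p = 0.144, limma). Its neighbors *tnni2a.1*, *tnni2a.2* and *tnni2a.3* had log2 fold changes of −0.08, 0.18 and −0.22, so that the 4 adjoining genes did not all point one way. *tnni2b.1* and *tnni2b.2* had log2 fold changes of 0.07 and 0.11.

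Slow troponin I varied among its copies. *tnni1a* was at 0.41, 1.02 and 1.46 TPM in *tulp1*-dKO heads and at 3.48, 2.28 and 2.84 TPM in wt heads. The groups did not overlap, but with a fold change of −1.60 on the log2 scale (SE 0.43, adjusted p = 0.13, limma) it did not pass the test. *tnni1c* was at 24.0, 23.3 and 26.1 TPM in *tulp1*-dKO heads and at 30.7, 29.1 and 32.96 TPM in wt heads, also without overlap (log2 fold change −0.33, adjusted p = 0.144, limma). The more abundant *tnni1d* and *tnni1b* had log2 fold changes of −0.11 and 0.07. Slow troponin C, encoded by *tnnc1b*, was at 132, 129 and 137 TPM in *tulp1*-dKO heads and at 125, 127 and 145 TPM in wt heads, with a log2 fold change of 0.01 that turned to −0.04 under median ratio scaling and −0.01 under quantile normalization. Slow troponin T, *tnnt1*, had a log2 fold change of −0.16.

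The cardiac troponins were at modest levels. *tnnt2e* was at 73.0, 87.8 and 93.6 TPM in *tulp1*-dKO heads and at 90.55, 77.3 and 95.4 TPM in wt heads (log2 fold change −0.05). *tnnt2a*, the troponin T of the zebrafish heart, was at 31.1, 38.6 and 32.3 TPM in *tulp1*-dKO heads and at 41.6, 45.9 and 35.9 TPM in wt heads (log2 fold change −0.27, adjusted p = 0.348, limma). *tnnt2b* was at 4.24, 4.97 and 4.52 TPM in *tulp1*-dKO heads and at 7.31, 6.31 and 5.74 TPM in wt heads, without overlap (log2 fold change −0.48, SE 0.15, adjusted p = 0.162, limma). By the RefSeq annotation, *tnnt2b* and *tulp1b* have 3 coding genes between them, and there are 4 between *tnni1b* and *tulp1b*. This search went by gene name, and members near *tulp1a* were not looked up. *tnnt2d* had a log2 fold change of −0.22, and *tnnt2c*, at 0.29, was the only one of the 5 cardiac troponin T genes above 0. The remaining cardiac troponins *tnni4a*, *tnni4b.2* and *tnnc1a* had log2 fold changes of −0.01, −0.20 and −0.06, and *tnni3k* had −0.12. Of 13 heart chamber markers, *tnnt2a* among them, none was changed (limma) and 1 was lower by unadjusted p at 0.05, with a median of 0.05 and a summed level of 269 to 335 TPM in *tulp1*-dKO samples and 303 to 348 TPM in wt samples. Their cardiac myosin light chain *myl7* was at 65.7, 92.0 and 73.5 TPM in *tulp1*-dKO heads and at 89.2, 91.4 and 79.7 TPM in wt heads, so this heart marker was detected in the heads of both groups.

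Parvalbumins, the calcium buffers of fast fibers, split by gene. *pvalb1* was at 1458, 1897 and 1930 TPM in *tulp1*-dKO heads and at 1248, 1268 and 1445 TPM in wt heads. Before any rescaling every *tulp1*-dKO sample was above every wt sample, though *tulp1*-dKO sample 1 was only just above wt sample 3. In that *tulp1*-dKO sample the median of all entries was itself 0.09 above the wt mean on the log2 scale. The log2 fold change of *pvalb1* was 0.41 (SE 0.12, adjusted p = 0.153, limma). *pvalb2*, the most abundant member by its mean over the 6 samples, was at 1717, 2223 and 2004 TPM in *tulp1*-dKO heads and at 1653, 1733 and 1498 TPM in wt heads, with overlap (log2 fold change 0.28, SE 0.10, adjusted p = 0.237, limma). *pvalb4* was at 653, 731 and 932 TPM in *tulp1*-dKO heads and at 979.5, 944 and 908 TPM in wt heads, with overlap and a fold change of −0.31 on the log2 scale (SE 0.13, adjusted p = 0.276, limma). Thus its fold change had the other sign from that of *pvalb1*, which adjoins it in the RefSeq table. *pvalb3*, at the lowest level of the 4, had means of 20.9 TPM in *tulp1*-dKO heads and 22.5 TPM in wt heads (log2 fold change −0.10).

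Creatine kinases of the mitochondrion and of the cytosol had fold changes of opposite sign. *ckmt2b*, a sarcomeric mitochondrial form by its description, was at 51.5, 48.4 and 52.5 TPM in *tulp1*-dKO heads and at 116, 122 and 127 TPM in wt heads. The mean in *tulp1*-dKO heads was 41.8% of that in wt heads, with a fold change of −1.26 on the log2 scale (SE 0.08, adjusted p = 0.00107, limma), and the gene stayed changed in 17 of 17 alternatives. Its copy *ckmt2a* was at 280, 237 and 207 TPM in *tulp1*-dKO heads and at 328, 341 and 337 TPM in wt heads, without overlap (log2 fold change −0.49, SE 0.11, adjusted p = 0.0874, limma). *ckmt1*, the remaining mitochondrial form, was at 204, 185 and 189 TPM in *tulp1*-dKO heads and at 233, 238 and 249 TPM in wt heads, without overlap (log2 fold change −0.32, SE 0.07, adjusted p = 0.0809, limma). Summed, the 3 mitochondrial genes were at 536, 471 and 448 TPM in *tulp1*-dKO samples and at 677, 700.5 and 713 TPM in wt samples. Only *ckmt2b* of the 3 passed the test.

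The cytosolic muscle forms *ckma* and *ckmb*, in contrast, had log2 fold changes of 0.24 each, and their groups did not overlap. *ckma* was at 481, 454 and 433 TPM in *tulp1*-dKO heads and at 358, 399 and 404 TPM in wt heads (adjusted p = 0.173, limma). *ckmb* was at 691, 746 and 720 TPM in *tulp1*-dKO heads and at 594, 584 and 648 TPM in wt heads (adjusted p = 0.131, limma). Neither passed an adjusted p of 0.05. The photoreceptor markers moved the same way as the mitochondrial forms: their median distance from the wt mean was −1.11, −1.27 and −2.18 in *tulp1*-dKO samples 1, 2 and 3, against 0.04, −0.06 and 0.02 in the wt samples. The median of the 3 mitochondrial creatine kinases was −0.26, −0.50 and −0.70 in the same *tulp1*-dKO samples. In the wt samples it was −0.04, 0.00 and 0.06. In each *tulp1*-dKO sample that median was the value of *ckmt2a* alone. The changed gene *ckmt2b* did not fall from *tulp1*-dKO sample 1 to 3 (51.5, 48.4 and 52.5 TPM), and *ckmt1* did not fall from sample 2 to 3 (185 and 189 TPM). The part of the photoreceptors in these values was not tested.

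**Figure D5:**
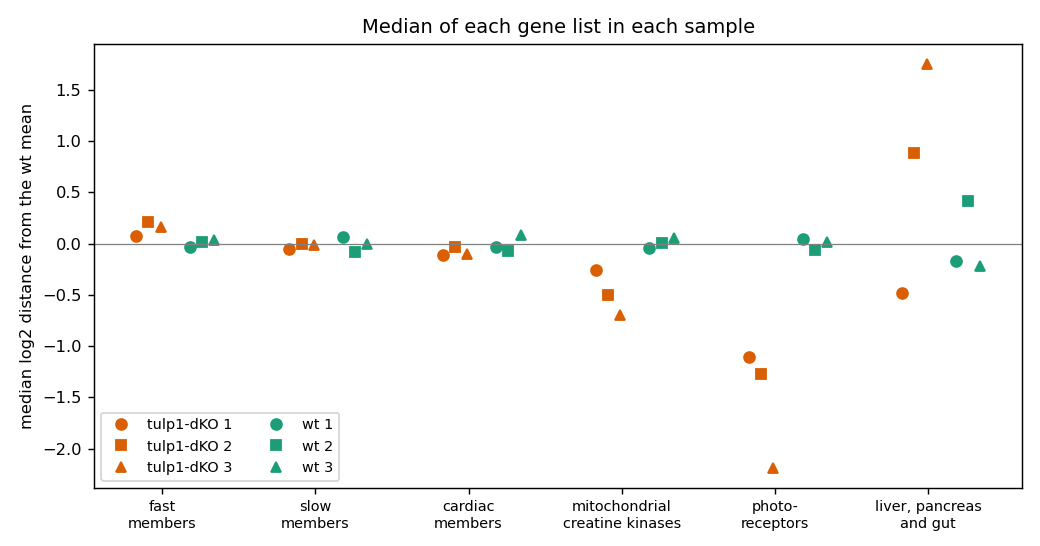
Median log2 distance of each gene list from the wt mean (vertical axis) in each sample, with *tulp1*-dKO samples left of wt samples for each list and marker shapes for the sample numbers. The fast, slow and cardiac members stay within 0.21 of 0 in every sample, the mitochondrial creatine kinases and the photoreceptor markers are below 0 in all 3 *tulp1*-dKO samples, and the liver, pancreas and gut markers scatter in both directions. The creatine kinase median is that of *ckmt2a* in each *tulp1*-dKO sample.

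The Z-disc and M-band genes and the thin filament caps mostly had log2 fold changes near 0, with 1 member passing an adjusted p of 0.05. *myoz3a*, a myozenin, was at 16.7, 15.4 and 16.6 TPM in *tulp1*-dKO heads and at 25.6, 29.6 and 27.7 TPM in wt heads. Its values did not overlap, and it fell by 0.76 on the log2 scale (SE 0.10, adjusted p = 0.0168, limma), short of the minimum fold and against the direction of most fast genes. It kept an adjusted p of at most 0.05 in 13 of 17 alternatives, and among the 4 losses were those without *tulp1*-dKO sample 2 (0.0802), wt sample 1 (0.0563) or wt sample 2 (0.0671). *myoz2a*, placed with the slow genes, was at 6.73, 7.02 and 4.5 TPM in *tulp1*-dKO heads and at 3.76, 4.88 and 2.99 TPM in wt heads, with overlap (log2 fold change 0.64, SE 0.24, adjusted p = 0.246, limma). The other 3 myozenins, *myoz1a*, *myoz1b* and *myoz2b*, had log2 fold changes of 0.21, 0.12 and 0.21. The myomesins *myom1a*, *myom1b* and *myom2a* had log2 fold changes of 0.07, 0.10 and −0.01. Among tropomodulins, *tmod4* of skeletal muscle and *tmod2* had log2 fold changes of 0.24 and 0.39 and *tmod1* one of −0.01, with no adjusted p of at most 0.05.

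Other muscle genes, from lists written by name, mostly had log2 fold changes near 0. Their counts stand against 58.1% of all entries above 0, and 10.1% higher and 6.97% lower by unadjusted p at 0.05. Of 12 giant and thick filament genes tested, such as titin, nebulin and myosin binding protein C, none was changed (limma), with a median of 0.02, and by unadjusted p at 0.05 there was 1 higher and 1 lower. Of 26 genes of excitation contraction coupling none was changed (limma), with a median of 0.01, and 1 was higher by unadjusted p. Among 20 myogenic regulators, which set muscle fate, the median was 0.00, none was changed (limma) and 1 was higher by unadjusted p. *myod1* was at 8.42, 8.41 and 7.73 TPM in *tulp1*-dKO heads and at 7.71, 7.21 and 9.96 TPM in wt heads. Of 6 tropomyosin genes none was changed (limma), with a median of −0.14, and 1 was higher and 2 were lower by unadjusted p. *tpm4b* among them fell by 0.56 on the log2 scale (adjusted p = 0.0439, limma). The higher one was *tpma*, the most abundant of the 6, with means of 1632 TPM in *tulp1*-dKO heads and 1319 TPM in wt heads. Its groups did not overlap (log2 fold change 0.30, adjusted p = 0.176, limma). Of 16 genes of muscle energy metabolism none was changed (limma), with a median of 0.03, and 4 were lower by unadjusted p. *pfkmb*, a muscle phosphofructokinase, fell by 0.80 on the log2 scale (adjusted p = 0.0299, limma). Of 10 chaperones of muscle assembly 8 were above 0 and none was changed (limma), with a median of 0.30, and 3 were higher by unadjusted p. *smyd2b*, a lysine methyltransferase, rose by 0.83 on the log2 scale (adjusted p = 0.0496, limma). Single genes named from these lists and from the Z-disc list below were not followed through the alternatives. Under median ratio scaling the medians of the thick filament, coupling, regulator and energy lists were −0.03, −0.04, −0.05 and −0.02, so their directions depended on the scaling.

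In the list of 21 Z-disc and desmin genes 1 gene was changed, with a median of 0.03 (−0.02 under median ratio scaling), and 3 were higher and 1 lower by unadjusted p at 0.05. *flnca*, a filamin C that cross-links actin at the Z-disc, was at 38.9, 28.8 and 27.6 TPM in *tulp1*-dKO heads and at 5.10, 5.20 and 6.82 TPM in wt heads. It rose by 2.45 on the log2 scale (SE 0.18, adjusted p = 0.00211, limma) without overlap. Its copy *flncb* was at 10.96, 8.16 and 6.68 TPM in *tulp1*-dKO heads and at 6.48, 6.35 and 8.61 TPM in wt heads (log2 fold change 0.25, adjusted p = 0.614, limma). *csrp3*, a muscle LIM protein, was the lower one, at 3.10, 1.96 and 1.66 TPM in *tulp1*-dKO heads and at 4.18, 4.47 and 5.0 TPM in wt heads, without overlap (log2 fold change −1.03, SE 0.25, adjusted p = 0.0997, limma). Desmin, encoded by *desma* and the main intermediate filament of muscle, was at 132, 133 and 133 TPM in *tulp1*-dKO heads and at 136, 141 and 130 TPM in wt heads.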

How the data were processed

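RNA of dissected heads at 4 dpf was measured in 3 *tulp1*-dKO and 3 wt samples. The authors mapped the reads to GRCz11 with HISAT2, obtained counts with RSEM, and deposited TPM per gene, so the values hold no counts and depth is unknown; the 3 samples of each group gave the precision. The DESeq2 test of the authors needs counts and was not repeated. Here the log2(TPM + 0.1) values of the 22824 entries with a mean of at least 0.5 TPM were fitted by limma's lmFit and eBayes with trend (limma 3.58.1, R 4.3.3), with Benjamini-Hochberg adjustment over all of them. The fit was also run on simulated data with independent noise and planted changes larger than those of most members. That run did not cover values of 0 or shifts shared by the genes of a sample. With 3 samples a group, the smallest two-sided p of an exact permutation test is 0.1, and none was used. The remaining steps used matplotlib 3.10.9, scipy 1.17.1, numpy 2.4.6 and pandas 2.3.3 under Python 3.11.15.

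The members, the classes, the families, the 15 other lists, the tests and the alternatives were chosen with earlier results of these data known. No set was tested as a whole. Named were the members counted as changed, in each class the 4 most abundant and the 3 of smallest p, the 3 largest rises and falls, and at most the 2 of smallest p of each other list described. Other genes were named to complete a family or after their values were seen. The gene name table held 67 of 68 members by identifier. Its symbol differed from the name used here for many of them, often as a human-style symbol. Examples are TMOD3 for *tmod2* and MYH6 for *smyhc3*. A RefSeq table of assembly GRCz12tu held a symbol for 66 members. That assembly is not the one of the authors, so no coordinates are given. Alternatives changed the pseudocount (0.5 or 1), the filter (none, or a mean of 2 TPM), the scaling (quantile normalization, median ratio scaling, or a common total without the members), eBayes (without trend, or robust), the model (replicate number as a block), the entries (summed by name) and the samples (each left out in turn). Classes taken from the words of the gene descriptions were added after the data were seen.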

Additional observations from a re-analysis of the deposited data

How the results depend on the processing

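The fall of *ckmt2b* was counted under all 17 alternatives (log2 fold change −1.30 to −1.22). Members counted as changed and higher went to 0 with a pseudocount of 1, with no filter, with eBayes without trend and with the replicate block. Members counted as changed and lower went to 1 with eBayes without trend, with trend and robust, with the block and with entries of 1 name summed, and under the last of these *actc1a* turned to 0.29. With p unadjusted, 8 members passed 0.05 as higher with eBayes without trend. The median of the members was −0.0015 under median ratio scaling. With each sample left out in turn, 104 to 243 entries were changed, 0 to 1 member was changed and higher and 1 to 2 were changed and lower, 7 to 15 members were higher and 8 to 9 lower by unadjusted p, and the medians were 0.03 to 0.07 for all members, 0.12 to 0.19 for fast, −0.06 to −0.01 for slow and −0.14 to 0.0091 (without wt sample 3) for cardiac members. These fits held 1 group of 2. With classes taken from the gene descriptions, the medians were 0.12 for 13 fast, −0.06 for 11 slow and −0.05 for 9 cardiac members. The causes of these shifts were not tested. TPM holds no depth, which limits what can be said of members at a few TPM.

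The labels number the samples 1 to 3 in both groups. Deviations from the group means of same-numbered samples correlated across genes at 0.029, 0.031 and 0.032 (Pearson's r), under 0.1, so the numbers were not taken to pair the samples, although every sample correlated best with its own number. With the replicate number as a block 134 entries were changed, and *ckmt2b* was the only member among them. Under the block, adjusted p exceeded 0.05 for *myhz1.2* (0.127), *myhz1.3* (0.14), *myoz3a* (0.0899) and *tulp1a* (0.0979), beside *myhc4* (0.107) and the lower *actc1a* entry (0.0758).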
